A study of Mus musculus with 9 samples.

Results

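The genes described here encode the BATF and AP-1 transcription factors: Batf, Batf3, Jun, Junb, Jund, Fos, Fosb and Fosl2. They were taken by name, with every probe set that the platform annotation assigns to one of them alone. This gave 8 genes with 11 probe sets, of 18193 genes and 34945 probe sets with a single gene symbol on the array. Of the 8 genes, 5 were bright enough to be tested (Batf, Jun, Junb, Jund and Fos), and Batf3, Fosb and Fosl2 were not.

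Transcripts were measured in germinal center (GC) B cells, the dividing B cells of the spleen follicle that mutate and select their antibody genes, on 9 Affymetrix Mouse 430.2 arrays. Mice aged 10 weeks received sheep red blood cells on day 0 and day 5, and cells with high B220, PNA and CD95 staining were sorted on day 12. The groups were FOXO1+/+, Cg1-Cre (WT, no floxed allele), FOXO1f/+, Cg1-Cre (HET, 1 floxed Foxo1 allele) and FOXO1f/f, Cg1-Cre (KO, 2 floxed alleles), with 3 arrays each. Every animal, the WT included, carried the Cg1-Cre recombinase, which acts in GC B cells, so that deletion depends on Cre activity in each cell. The sample labels give 1 animal per array, whereas the design text speaks of pools. The labels name neither the animals' sex nor a batch. Foxo1 encodes a forkhead transcription factor, and its brightest probe set gave a KO mean of 19.0% and a HET mean of 65.4% of the WT mean. Whether that probe set lies in the deleted segment was not analysed here.

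AP-1 is a family of dimers of leucine zipper proteins. JUN proteins pair with each other or with FOS proteins, and FOS proteins need a JUN partner to bind DNA. BATF and BATF3 are short members without the activation domains of FOS; they pair with JUN proteins and, at composite sites, bind beside IRF4 or IRF8. BATF is known to be needed for antibody class switching in B cells, and JUN and FOS are known as genes that rise within minutes of receptor stimulation.

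The stretches of 250 bases before the RefSeq start sites of Batf, Jun and Junb are shown because these are the 3 tested members whose KO and WT arrays did not overlap. They are written 5′ to 3′ on the gene's strand, from RefSeq with build GRCm38.p6: chr12:85686470-85686719 (+) for Batf, chr4:95052223-95052472 (-) for Jun and chr8:84978749-84978998 (-) for Junb. Capitals mark matches to the motifs TGANTCA (AP-1 site), TGACNTCA (its longer, CRE-like form) and TGTTTAC (forkhead site), searched on both strands.
Batf: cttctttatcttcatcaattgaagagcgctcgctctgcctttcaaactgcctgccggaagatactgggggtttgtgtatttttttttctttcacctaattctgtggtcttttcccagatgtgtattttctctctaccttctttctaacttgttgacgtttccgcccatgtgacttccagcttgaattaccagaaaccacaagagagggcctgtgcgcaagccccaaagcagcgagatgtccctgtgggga
Jun: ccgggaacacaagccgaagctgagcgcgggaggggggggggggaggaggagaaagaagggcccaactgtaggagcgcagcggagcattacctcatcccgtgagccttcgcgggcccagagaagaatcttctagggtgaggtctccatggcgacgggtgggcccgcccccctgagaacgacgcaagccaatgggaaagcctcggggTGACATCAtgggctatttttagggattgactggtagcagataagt
Junb: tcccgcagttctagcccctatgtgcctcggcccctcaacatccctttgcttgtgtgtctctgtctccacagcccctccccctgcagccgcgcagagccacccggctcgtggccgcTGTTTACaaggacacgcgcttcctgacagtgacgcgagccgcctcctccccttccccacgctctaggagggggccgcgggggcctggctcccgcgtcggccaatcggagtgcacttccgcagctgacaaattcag
All 8 genes had a start site in the table. TGANTCA was in the window of 0 of the 8, against 6.75% of all 32851 windows of this length. TGACNTCA was in 1 of 8, that of Jun, as TGACATCA beginning 45 bases before the start, against 7.49% of all windows. TGTTTAC was in 1 of 8, that of Junb, beginning 135 bases before the start, against 3.17% of all windows. The motifs did not overlap each other in the printed stretches. No motif match was in the Batf window, which says only that these letters are not in this stretch.

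Batf was the only member that passed the test between genotypes, and it was lowest in KO. Its single probe set gave signals of 466, 616 and 570 on the WT arrays. The HET arrays gave 426, 478 and 314, and the KO arrays 221, 286 and 164. Every KO array lay below every WT and every HET array, while the HET and WT arrays overlapped. The means were 551 ± 76.9 for WT, 406 ± 83.8 for HET and 224 ± 61.4 for KO (SD, n = 3), so the HET mean was 73.8% and the KO mean 40.6% of WT. In KO vs WT, Batf fell by 1.32 on the log2 scale (SE 0.20, 95% interval -1.76 to -0.88, limma adjusted p = 0.00115). Of 10331 tested genes, 61 had a log2 change this low or lower. In bulk samples such as these, fewer Batf-expressing cells and less Batf RNA per cell cannot be told apart.

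**Figure D1:**
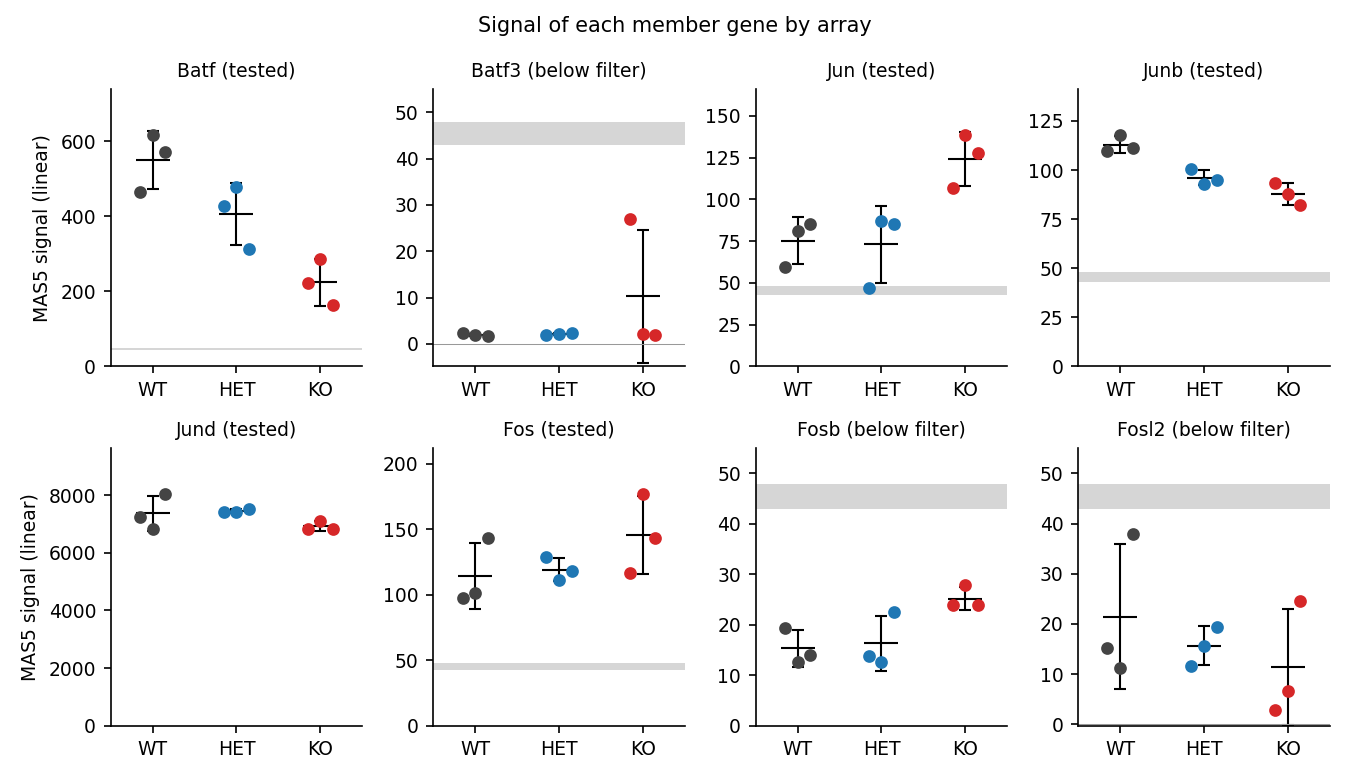
MAS5 signal (linear, y axis) of the brightest probe set of each of the 8 genes on the 3 arrays of each genotype (x axis); points are arrays, horizontal ticks with bars are the mean ± SD, and the gray band is the range of the array medians, 42.9 to 48.0. Batf steps down from WT to KO, Jun is higher on all KO arrays than on the others, and Batf3, Fosb and Fosl2 stay below the band.

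The step from HET to KO also passed for Batf, whereas that from WT to HET did not. Batf fell by 0.87 in KO vs HET (SE 0.20, limma adjusted p = 0.0192). This call was lost when HET replicate 1 (adjusted p = 0.0598), HET replicate 2 (adjusted p = 0.0819) or KO replicate 3 (adjusted p = 0.0560) was left out, and with a variance prior that does not follow the mean signal (adjusted p = 0.0602); over all alternatives it ranged from 0.00795 to 0.0819. In HET vs WT the change was -0.45 (SE 0.20, 95% interval -0.89 to -0.0081, limma adjusted p = 0.998; unadjusted p = 0.0465). The HET mean lay 0.21 above the midpoint of WT and KO on the log2 scale, with an interval of -0.17 to 0.59 (limma adjusted p = 0.754), so a value at the midpoint was within the error. The fall in KO vs WT kept its call under each of the 23 alternatives run, with adjusted p from 5.88e-04 to 0.0114.

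Of the 5 tested members, 1 was called in KO vs WT (1 lower, 0 higher), against 11.9% of all tested genes (5.83% lower, 6.1% higher). In KO vs HET 1 of 5 was called (1 lower), against 8.99% of all tested genes (4.43% lower, 4.56% higher). In HET vs WT, limma called 0 of 5 members, against 0.00968% of all tested genes, and 1 (Batf) had an unadjusted p under 0.05, against 4.18%. KO vs WT and HET vs WT share the WT arrays, and KO vs WT and KO vs HET share the KO arrays. The median change of the tested members was -0.085 in KO vs WT, beside 0.011 over all genes. Of all genes, 630 were called higher and 602 lower in KO vs WT; with each array centred on its median these were 443 and 855, and without WT replicate 2 or WT replicate 3 the total of 1232 came to 770 and 768.

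Batf3, the closest relative of Batf, was not measurable here. Its probe set gave 1.81 to 2.40 on 8 of the 9 arrays and 26.9 on KO replicate 1. All 9 values lay below their array's median, so no fold is given. The 1 higher array, KO replicate 1, was also below that median.

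Among the JUN genes none passed the main test. Jun was higher on KO arrays, Junb was lower, and Jund was close to level. Jun, the founding AP-1 gene, gave 59.4, 81.0 and 85.5 in WT, 46.7, 86.8 and 85.5 in HET, and 106, 138 and 127 in KO. Each KO array exceeded each WT and HET array, and the HET and WT arrays overlapped. The means were 75.3 ± 13.9 for WT, 73.0 ± 22.8 for HET and 124 ± 16.2 for KO (SD, n = 3), with KO at 165% of WT. The change was 0.71 in KO vs WT (SE 0.26, limma adjusted p = 0.102; unadjusted p = 0.0181) and 0.79 in KO vs HET (SE 0.26, limma adjusted p = 0.0832). The interval in KO vs WT ran from 0.14 to 1.28. Over the alternatives the adjusted p of the KO vs WT change lay between 0.0505 and 0.275 and never passed. The second Jun probe set was dim, with 1 of 9 arrays at or above its array's median. It gave 23.5, 40.8 and 3.53 in WT, 18.9, 50.4 and 18.8 in HET, and 36.1, 46.2 and 34.2 in KO, with all groups overlapping (exact permutation p = 0.30 for KO vs WT, two-sided, where the smallest possible is 0.10).

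Junb, whose product is known to dampen JUN and to pair with BATF in lymphocytes, was highest in WT. Its signals were 109.9, 118 and 111 in WT, 100.3, 93.1 and 94.9 in HET, and 93.3, 87.9 and 82.1 in KO. All WT arrays lay above all HET and KO arrays, and HET and KO overlapped by a single array. The means were 113 ± 4.18 for WT, 96.1 ± 3.76 for HET and 87.8 ± 5.63 for KO (SD, n = 3), or 85.1% and 77.7% of WT. The change of -0.36 in KO vs WT (SE 0.17, 95% interval -0.73 to 0.013) did not pass (limma adjusted p = 0.212), nor did that of -0.23 in HET vs WT (limma adjusted p = 0.998). The SE here is set partly by the spread of other genes of like signal. With a prior that does not follow the signal, Junb passed in KO vs WT (adjusted p = 0.0166), and over all alternatives its adjusted p ranged up to 0.378.

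Jund, the JUN gene that is least dependent on stimulation, had signals of 7233, 6836 and 8021 in WT, 7408, 7423 and 7511 in HET, and 6834, 7114 and 6836 in KO. The KO and HET arrays did not overlap, KO being lower, while both overlapped WT. The means were 7363 ± 603 for WT, 7447 ± 55.8 for HET and 6928 ± 161 for KO (SD, n = 3). The change was -0.085 in KO vs WT (SE 0.057, 95% interval -0.21 to 0.038, limma adjusted p = 0.381) and -0.10 in KO vs HET (SE 0.057, limma adjusted p = 0.288). The interval in KO vs WT leaves room for a fall of 0.21 at most on this scale. A second Jund probe set gave 20.4 to 48.7, with 2 of 9 arrays at or above the array median and all groups overlapping.

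**Figure D2:**
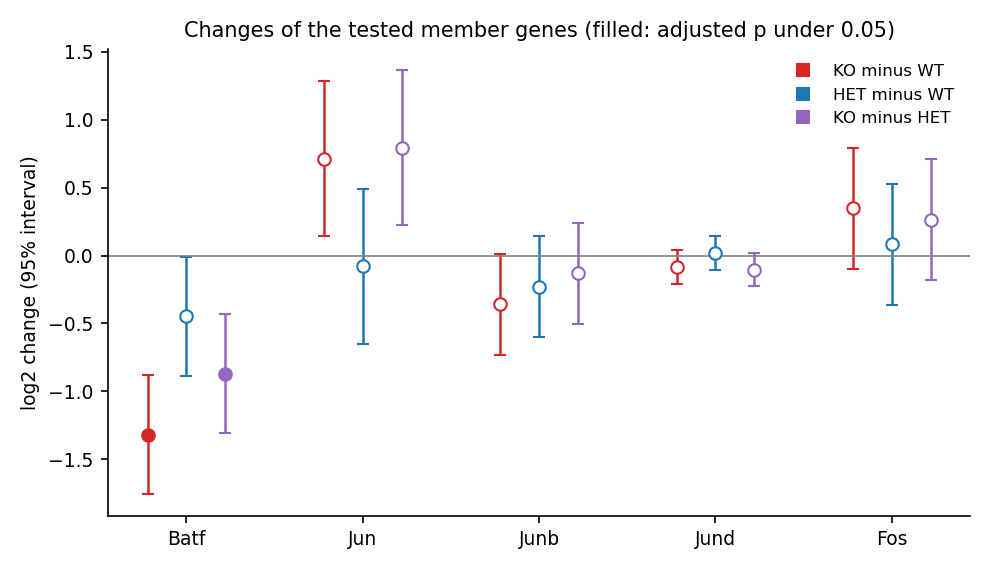
Log2 change (y axis) with its 95% interval for the 5 tested genes (x axis) in KO minus WT, HET minus WT and KO minus HET, from limma over 9 arrays; filled points have an adjusted p under 0.05. The 2 filled points are both of Batf, and the intervals of Jun in KO minus WT and KO minus HET lie above 0 although they are not filled.

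Of the FOS genes, Fos alone was bright enough to test, and its groups overlapped. Fos, the classical JUN partner and immediate early gene, gave 97.4, 102 and 143 in WT, 129, 111 and 118 in HET, and 117, 177 and 143 in KO. The highest array was KO replicate 2, and the lowest KO array lay below the highest WT array. The change was 0.35 in KO vs WT (SE 0.21, 95% interval -0.10 to 0.79, limma adjusted p = 0.320), 0.082 in HET vs WT and 0.27 in KO vs HET. Fosb, another immediate early FOS gene, did not reach the array median anywhere. It gave 19.5, 12.6 and 13.9 in WT, 13.8, 12.6 and 22.6 in HET, and 23.9, 27.8 and 23.9 in KO. The KO values were above all others (exact permutation p = 0.10 for KO vs WT, two-sided, the smallest possible), but no fold is given for values below that level. Fitted without the filter on dim genes, Fosb did not pass in KO vs WT (limma adjusted p = 0.439). Fosl2, which encodes FRA2, had a pair of probe sets that ranged from 2.70 to 19.8 and from 2.95 to 37.9, all below the array medians, with all groups overlapping.

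Not overlapping between KO and WT were 3 of the 5 tested members (Jun higher, Batf and Junb lower), against 29.7% of all tested genes (16.2% higher, 13.5% lower). For KO and HET it was 3 of 5 (Jun higher, Batf and Jund lower), against 27.7% (14.5% higher, 13.1% lower). For HET and WT it was 1 of 5 (Junb lower), against 9.82% (4.95% higher, 4.88% lower).

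Ordered by genotype, the means of Batf and Junb went down from WT through HET to KO, and the HET mean of Jun stood beside WT rather than between WT and KO. For Batf the neighbours HET and WT overlapped, for Junb the neighbours KO and HET overlapped, and for Jun the neighbours HET and WT overlapped. Within the KO group, the order of Batf followed that of the remaining Foxo1 signal. Foxo1 stood at 983, 1392 and 727 on KO replicates 1, 2 and 3, where Batf stood at 221, 286 and 164. These are 3 arrays, and no test was made. In HET the array with the lowest Batf (replicate 3, 314) also had the lowest Foxo1 (3479), while in WT the array with the highest Batf (replicate 2, 616) had the lowest Foxo1 (5299.9). These are values of the brightest Foxo1 probe set. On the probe sets next in brightness, the lowest WT value was on replicate 3 (3761 and 774). The dimmer of these had its lowest HET value on replicate 2 (431, beside 444 on replicate 3). Both kept the KO order, which was reversed on the dimmest Foxo1 probe set (71.7, 54.6 and 81.4).

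Markers of other cells were measured beside these genes. Of 13 GC B cell markers, 11 were on the array, each at or above the array median on at least 1 array, and their summed signal was 61337 to 66585 in WT, 63007 to 63694 in HET and 58773 to 60988 in KO. Each KO sum thus lay below each WT and HET sum. In KO vs WT, 3 of the 11 fell, 1 rose and 7 did not pass. Called were thus 36.4%, against 11.9% of all tested genes. Gcsam fell by 1.36, Neil1 by 0.42 and Rgs13 by 0.25, and Fas rose by 0.30 (limma adjusted p = 1.47e-05, 5.04e-04, 0.0143 and 0.0131). Of 19 myeloid markers on the array, 8 were below the array median on all 9 arrays, namely Itgam, Cd14, Fcgr3, Mpo, Ccr2, C1qa, C1qc and Marco. Of the 10 that were tested, 4 (40%) rose in KO vs WT and 6 did not pass. Lyz2 rose by 1.78, Csf1r by 2.46, Lyz1 by 2.13 and Cd68 by 0.67 (limma adjusted p = 0.0121, 0.0398, 0.0401 and 0.00580). Those that did not pass were C1qb (2.21, limma adjusted p = 0.0701), Mrc1 (0.78), S100a8 (0.36), Adgre1 (0.34), Cebpb (-0.056) and S100a9 (-1.08). After C1qb, their limma adjusted p ran from 0.522 to 0.925. The summed myeloid signal was 1819, 985 and 826 on the WT arrays, 1316, 1113 and 2804 on the HET arrays, and 3198, 2637 and 2475 on the KO arrays, so it was higher in KO than in WT, as Jun was. HET replicate 3 had a myeloid sum within the KO range and a Jun signal of 85.5, beside 86.8 on HET replicate 2, where the sum was 1113. It was also the HET array with the lowest Batf (314); without it, the Batf change in KO vs HET was -1.04 (limma adjusted p = 0.0130). The summed signal of 8 plasma cell markers, of which Tnfrsf17 stayed below the array median, was 24064 to 25429 in WT, 24633 to 26426 in HET and 30144 to 32647 in KO. Of the 7 that were tested, 5 (71.4%) rose in KO vs WT (Slpi, Irf4, Ell2, Prdm1 and Sdc1). Jchain (-0.057) and Xbp1 (-0.051) did not pass (limma adjusted p = 0.504 and 0.758). Slpi had the largest share of the rise in the sum, with means of 3940 in WT and 8493 in KO. Dendritic cell markers summed to 1434 to 1570 in WT, 1712 to 1769 in HET and 1683 to 1985 in KO. Each KO and HET sum thus lay above each WT sum. Of the 4 that were tested, 1 (25%) rose in KO vs WT, namely Sirpa (0.65, limma adjusted p = 0.00145). Zbtb46 (0.90), Bst2 (-0.41) and Flt3 (-0.088) did not pass (limma adjusted p = 0.0520, 0.244 and 0.726). Xcr1, Siglech and Cd209a stayed below the array median throughout. T cell markers summed to 433 to 512 in WT, 391 to 535 in HET and 360.1 to 459.6 in KO, with Cd3d, Cd3g, Cd4 and Cd28 among the 7 of 13 that stayed below it. NK cell (294 to 417 in WT, 366 to 535 in KO) and erythroid markers (4915 to 5154 in WT, 4313 to 5015 in KO) overlapped between KO and WT. The stromal sum was lower in KO (3474 to 3576) than in WT (3931 to 4031), but most of it was the signal of Cr1l (mean 3665 in WT, 3163 in KO). Of the 9 stromal genes on the array, 6 were below the array median throughout. Pecam1, the other tested stromal gene, changed the other way (0.44, limma adjusted p = 0.0781). The part of any of these cells in the levels of Batf, Jun and Junb was not tested.

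The genes around the members were described in 7 lists holding 183 genes, of which 147 were tested. In KO vs WT 27 of them were called, 15 higher and 12 lower, or 18.4% against 11.9% of all tested genes. A gene could stand in more than 1 list. Called were 25% of the other bZIP genes, 15.8% of the IRF, ETS and other factors and 4.35% of the MAP kinase cascade. The share was 40% for the MAP kinase phosphatases, 13.8% for the other immediate early genes and 4.76% for the Batf inducers. For the reported targets it was 36.4%. All 7 lists were written with earlier results of these data known, so shares above 11.9% are not independent evidence. In HET vs WT, limma called 0 in each list, and 6 of the 147 genes had an unadjusted p under 0.05, against 4.18% of all tested genes.

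Among 24 tested bZIP genes outside the members, 2 rose, 4 fell and 18 did not pass, with a median change of -0.058; without WT replicate 3 or KO replicate 2 the calls numbered 3. Bach2, a repressor of plasma cell fate that competes for AP-1-like sites, went from 7634 ± 479 to 3652 ± 252 (SD, n = 3), and fell by 1.06 (SE 0.061, limma adjusted p = 6.30e-07). Atf4, the factor of the amino acid response, fell by 0.25 (SE 0.055, limma adjusted p = 0.00950), and Atf6, a sensor of endoplasmic reticulum stress, rose by 0.50 (SE 0.11, limma adjusted p = 0.0110; 0.118 without KO replicate 2). Jdp2, which encodes a JUN dimerization protein that represses AP-1, gave 531, 632 and 632 in WT, 643, 626 and 616 in HET, and 432, 403 and 498 in KO. Each KO array lay below each WT and HET array. Jdp2 fell by 0.43 in KO vs WT (SE 0.11, limma adjusted p = 0.0223), a call that was lost without WT replicate 2, WT replicate 3, KO replicate 1 or KO replicate 2 (adjusted p = 0.0895, 0.0883, 0.0633 and 0.0794). In the RefSeq gene order of chromosome 12, Jdp2 is the 1 protein-coding gene between Fos and Batf, among 4 genes in all. The remaining calls in this list, named after their values were seen, were Dbp (0.51, limma adjusted p = 0.0425) and Nfe2l2 (-0.36, limma adjusted p = 0.0457), which lost their calls in 12 and 11 of 23 alternatives. Dbp did not pass without WT replicate 1 or 3, HET replicate 2, or KO replicate 2 or 3 (adjusted p up to 0.158). Nfe2l2 did not pass without any 1 of the WT arrays, HET replicate 1 or 2, or KO replicate 1 or 3 (adjusted p up to 0.183). The mean of its probe sets gave Nfe2l2 a change of -0.033 (adjusted p = 0.898), so its probe sets disagree.

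Of 19 tested IRF, ETS and other factors known to bind beside AP-1, 2 rose, 1 fell and 16 did not pass, with a median of 0.047; the 3 calls came to 1 without WT replicate 3. Irf4, the partner of BATF at composite sites, rose from 3145 ± 168 to 4794 ± 442 (SD, n = 3; log2 change 0.61, SE 0.083, limma adjusted p = 4.73e-04), the opposite direction to Batf. Irf4 is also 1 of the 8 plasma cell markers, whose sum was higher in KO. That sum is not independent of the Irf4 rise, and the part of plasma cells in this rise was not tested. Nfatc1, a calcium-dependent partner of AP-1, fell by 0.40 (SE 0.091, limma adjusted p = 0.0121; 0.0509 without WT replicate 3). Runx3 rose by 0.44 (SE 0.12, limma adjusted p = 0.0263), but did not pass with WT replicate 1, 2 or 3 or KO replicate 2 removed (adjusted p = 0.0503, 0.0693, 0.0876 and 0.0951). Nfatc2 had a change of 0.27 (limma adjusted p = 0.0587).

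Of 23 tested genes of the MAP kinase cascade, whose kinases act on JUN and FOS, 0 rose, 1 fell and 22 did not pass, with a median of -0.019; without the trend 0 were called. Map3k5, which encodes the stress kinase ASK1, fell by 0.31 (SE 0.071, limma adjusted p = 0.0145), which no longer passed once WT replicate 3 (adjusted p = 0.0547) or KO replicate 3 (adjusted p = 0.0520) was removed. Map4k1 (0.20, adjusted p = 0.0655), Cops5 (-0.11, adjusted p = 0.164) and Map3k2 (0.26, adjusted p = 0.184) did not pass in limma; the mean of its probe sets gave Cops5 a change of 0.14.

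Of 10 tested genes of the phosphatases that switch MAP kinases off, 3 fell, 1 rose and 6 did not pass, with a median of 0.0075. Dusp6, which acts on ERK, went from 1341 ± 14.9 to 607 ± 83.4 (SD, n = 3), and fell by 1.15 (SE 0.10, limma adjusted p = 1.47e-05). Dusp4, which acts on ERK and JNK, went from 299.6 ± 52.6 to 93.4 ± 39.0 (SD, n = 3), and fell by 1.72 (SE 0.25, limma adjusted p = 6.47e-04). Dusp16, which acts on JNK, rose by 0.36 (SE 0.065, limma adjusted p = 0.00362). Dusp3 fell by 0.89 (SE 0.25, limma adjusted p = 0.0396), and its call was lost in 11 of 23 alternatives, without each of WT replicates 1, 2 and 3, HET replicate 2, KO replicate 1 and KO replicate 2 among them (adjusted p up to 0.128).

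Of 29 other tested immediate early genes, which are known to rise with Fos and Jun on stimulation or on tissue dissociation, 2 rose, 2 fell and 25 did not pass, with a median of 0.0058. The 4 calls are 13.8% of the list, near the 11.9% of all tested genes. They came to 2 without WT replicate 1, WT replicate 2 or KO replicate 2, and to 1 without the trend, where Egr2 (adjusted p = 0.0547), Btg2 (adjusted p = 0.0626) and Egr1 (adjusted p = 0.0924) did not pass. Ier5 rose by 0.47 (SE 0.096, limma adjusted p = 0.00666) and Egr1 by 0.26 (SE 0.071, limma adjusted p = 0.0329). Egr2, a target of antigen receptor and NFAT signals, fell by 0.82 (SE 0.19, limma adjusted p = 0.0123), and Btg2, an antiproliferative gene, by 0.61 (SE 0.15, limma adjusted p = 0.0182). The Egr1 call was lost without WT replicate 1 or 2 or KO replicate 1 or 2 (adjusted p = 0.0865, 0.134, 0.0888 and 0.115) and with arrays centred on their median (adjusted p = 0.136). That of Btg2 was lost without the same 4 arrays (adjusted p = 0.0692, 0.0636, 0.0686 and 0.0709).

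Of 21 tested genes for CD40, the cytokine receptors and the STAT factors that are known to induce Batf, 1 rose and 20 did not pass, with a median of -0.0040; 0 were called without WT replicate 3 or KO replicate 2, and 5 without KO replicate 3. The 1 gene, Il10ra, which encodes an interleukin-10 receptor chain, rose by 0.73 (SE 0.18, limma adjusted p = 0.0170). It did not pass once WT replicate 3 (adjusted p = 0.0707) or KO replicate 2 (adjusted p = 0.0567) was removed, and the mean of its probe sets gave -0.19 (adjusted p = 0.836), so the Il10ra probe sets disagree. The nearest to passing were Stat6 (0.21, adjusted p = 0.0673), Jak1 (-0.23, adjusted p = 0.130) and Stat5b (-0.18, adjusted p = 0.131) in limma. With the mean of probe sets all 3 passed, Stat6 at 0.26 (adjusted p = 0.0430), Jak1 at -0.41 (adjusted p = 0.0227) and Stat5b at -0.42 (adjusted p = 0.0446). With median centring Jak1 (-0.29, adjusted p = 0.0480) and Stat5b (-0.24, adjusted p = 0.0450) passed. Stat6 also passed with the Xist block (adjusted p = 0.0307), and without KO replicate 3 Stat6 (adjusted p = 0.0390) and Jak1 (adjusted p = 0.0451) did. The list's calls numbered 3 with the mean of probe sets, 3 with median centring and 2 with the Xist block.

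Of 22 tested genes reported elsewhere as targets of BATF or AP-1 in lymphocytes, 7 rose, 1 fell and 14 did not pass, with a median of 0.13 beside 0.011 over all genes. The list was written with results of these data known, so its direction is not independent evidence. Il10, which encodes a regulatory cytokine, was below the array median on all 3 WT arrays (23.5 ± 3.04) and stood at 178 ± 38.7 in KO (SD, n = 3), at least 4.0-fold higher (limma adjusted p = 8.98e-05). It reached the array median on 0 WT, 0 HET and 3 KO arrays, so it met the filter only through the group where it is high. Its p-value is therefore not independent of the filter, and only 19 of the 23 alternatives could test it. Id2, an inhibitor of E proteins, rose by 1.25 (SE 0.10, limma adjusted p = 1.13e-05). Cd86, a costimulatory ligand, rose by 0.41 (SE 0.069, limma adjusted p = 0.00186), and Prdm1, the gene of BLIMP1, which drives plasma cell fate, by 0.86 (SE 0.17, limma adjusted p = 0.00685). The other rises were of Cdkn1a, Ccr6 and Tnf (log2 changes 1.09, 1.00 and 0.78, limma adjusted p = 0.00862, 0.00864 and 0.0104), named after their values were seen; that of Tnf had an adjusted p of 0.0521 without WT replicate 2. The 1 fall was of Ctla4, also named after its values were seen. Ctla4 was below the array median on all KO arrays and at least 1.46-fold lower (limma adjusted p = 0.0469), and it did not pass in 12 of 22 alternatives, among them those that left out any WT array, HET replicate 2 or 3, or KO replicate 3 (adjusted p up to 0.142). Ctla4 reached the array median on 3 WT, 2 HET and 0 KO arrays, so it met the filter only through those higher groups. Its p-value, too, is therefore not independent of the filter. The myeloid and plasma cell sums given above were higher in KO as well, and their part in the rises of Il10, Tnf and Prdm1 was not tested. Prdm1 is itself 1 of the 8 plasma cell markers, so that sum is not independent of its rise.

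**Figure D3:**
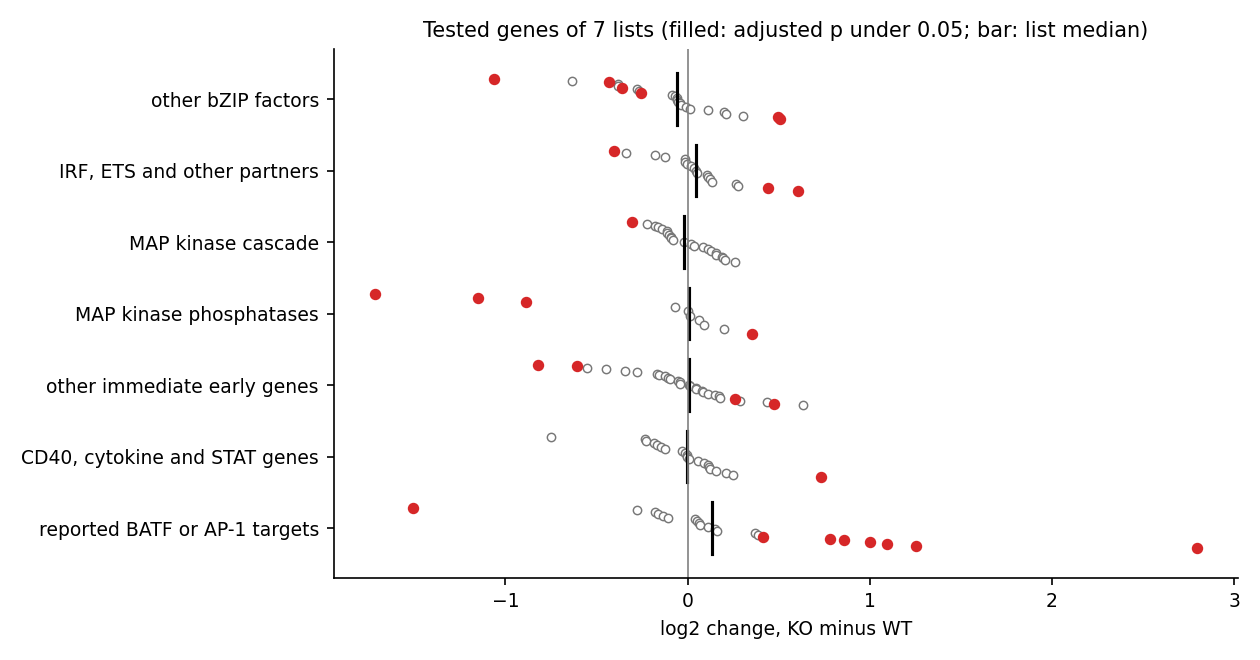
Log2 change in KO minus WT (x axis) of each tested gene in the 7 lists (y axis); filled points have a limma adjusted p under 0.05, and the vertical bar is the list's median. The medians run from -0.058 to 0.13, with called genes on both sides of 0 in 5 of the 7 lists.

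The genes whose pattern over the 9 arrays was most like that of Batf were Gstt1, Chst7, Insr, Yars and Asah2, by Pearson correlation of log2 signals. The correlations were 0.979 for Gstt1 (a glutathione transferase), 0.974 for Chst7 (a sulfotransferase), 0.971 for Insr (the insulin receptor), 0.967 for Yars (a tRNA synthetase) and 0.964 for Asah2 (a ceramidase). The most opposite were Ttc38 (-0.968), Ift172 (-0.966) and Prkag2 (-0.964, a subunit of AMP-activated kinase). These 9 points hold 3 genotypes and share the arrays' scaling, so genes that differ between genotypes correlate for that alone. After each group's mean was removed, the correlation with Batf was 0.894 for Gstt1, 0.973 for Chst7, 0.889 for Insr, 0.819 for Yars and 0.843 for Asah2, and -0.822, -0.959 and -0.822 for Ttc38, Ift172 and Prkag2. The genes were picked for their likeness, so these values are a description.

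**Figure D4:**
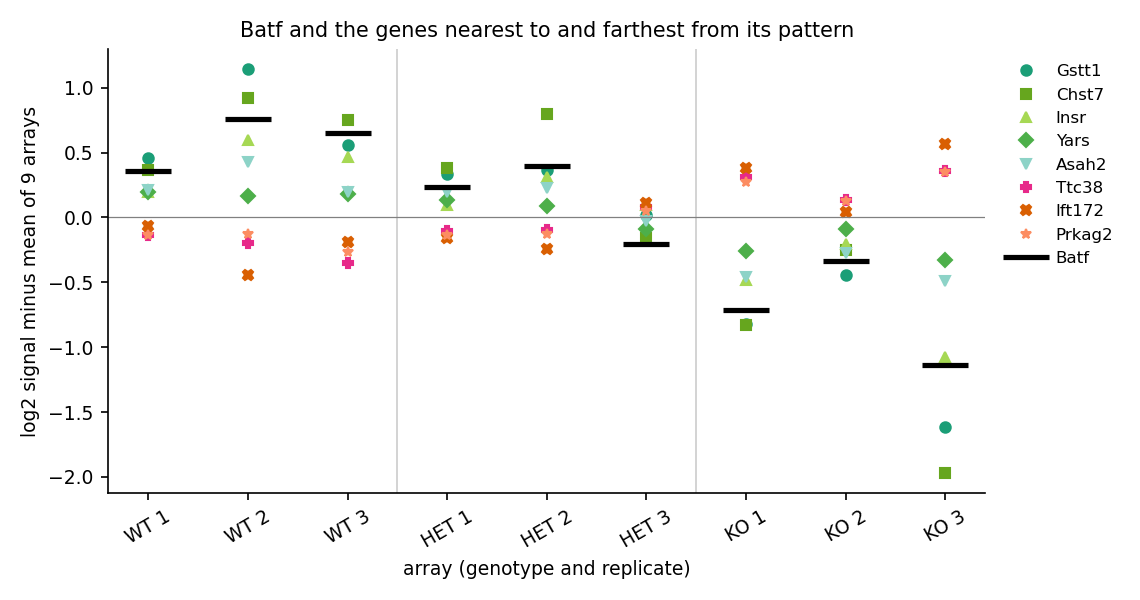
Log2 signal minus its mean over the 9 arrays (y axis) for Batf (black bars) and the 8 genes nearest to or most opposite to its pattern (symbols), by array (x axis). On KO replicate 3 Batf and its 5 nearest genes are at their lowest of the 9 arrays, and HET replicate 3 is the HET array with the lowest Batf.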

How the data were processed

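Transcripts were measured with Affymetrix Mouse 430.2 arrays in 9 samples of sorted GC B cells, 3 per genotype. Per the submitters' processing notes the authors used MAS5 (version not given in the sources used here), and the deposited values are signal intensities on a linear scale. The mean after trimming 2% at each end lay between 497 and 498 on each array, so the arrays share 1 trimmed mean level. Their medians differed, at 42.9 to 44.8 in WT, 44.0 to 45.0 in HET and 47.4 to 48.0 in KO. Every KO median thus lay above every WT and HET median. With quantile normalization the Jun change in KO vs WT was 0.59 (limma adjusted p = 0.187). The part of the higher KO medians in the KO signals of dim probe sets, Fosb included, was not tested. RNA was amplified before labelling, per the labels' protocols (25 ng in the label protocol, 20 ng in the design text).

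Signals were analysed as log2(signal + 2.09), the 10th percentile of all signals, which understates changes of dim genes. Probe sets at or above the array median in at least 3 of 9 arrays were kept, and the brightest stood for its gene (10331 genes). The model was limma 3.58.1 in R 4.3.3 (lmFit, eBayes with trend) over all arrays, checked on simulated data, with Benjamini-Hochberg adjustment over all genes and calls under 0.05, two-sided. No member had a second probe set that passed the filter. A gene below the median on all arrays of a group has only a bound there, the higher of its signal and the array median, and its fold is given as "at least". The number of arrays limits the precision, and the p-values measure the spread between samples, which are single animals per the labels and may be pools per the design text.

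The members and lists were chosen with earlier results of these data known. Named are all members, up to 4 genes of each pathway list with the smallest KO vs WT adjusted p, and the 5 genes most like and the 3 least like Batf. Marker lists are given as summed signals of each gene's brightest probe set, with the changes of some single genes beside them. Some listed genes were not analysed here. Replicate numbers follow accession order and only name an array. The alternatives changed the offset, filter, normalization, choice of probe set, eBayes settings, array weights, arrays fitted and a block for high or low Xist, and left out each array in turn.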

Additional observations from a re-analysis of the deposited data

How the results depend on the processing

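No paired analysis was possible because the labels give no number that links animals of different genotypes. The alternatives were 14 changes of setting and 9 fits that left out 1 array each. Under all of those that could be run, the KO vs WT fall of Batf kept its call (log2 change -1.51 to -1.11). Without the trend, 2 members were called in KO vs WT and 0 in KO vs HET, where Batf changed by -0.87. Leaving out 1 array gave 0 to 1 members called in KO vs HET with a Batf change of -1.06 to -0.66, and 543 to 895 genes called. For KO vs WT these fits called 768 to 1183 genes, and for HET vs WT 1 to 3. The HET vs WT count was 3 with robust eBayes, 3 with array weights and 3 with only the 2 genotypes compared. Some changes close to 0 in HET vs WT changed sign: Jun to 0.011 with the Xist block, to 0.019 without WT replicate 3 and to 0.21 without HET replicate 1 (left-out fits -0.24 to 0.21), Fos to -0.019 without WT replicate 1 (-0.019 to 0.25), and Jund to -0.032 without WT replicate 2 (-0.032 to 0.083). With the mean of probe sets, the KO vs WT change of Cops5 was 0.14 and that of Il10ra -0.19. Quantile normalization and median centring left the direction of all 5 tested members in KO vs WT as it was. The causes of these shifts were not tested. Batf3, Fosb and Fosl2 lie at signals where the array sets no level.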
